A study of Homo sapiens with 15 samples.

Results

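APOA4, CPT1A and PPARA are 3 genes of lipid handling in the absorptive cells of the gut, and they were followed here across 15 arrays of Caco-2 cells. They were taken by symbol from the platform annotation, as 3 of the 14884 genes with a named row. Each had 1 row, so the choice of the brightest row left nothing out. All 3 passed the filter on low values on 15 of 15 arrays and were among the 11804 genes tested. Caco-2 is an established human line from a colon carcinoma whose cells take on features of small-intestinal enterocytes when they stay confluent.

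The arrays fell into 3 groups of 5. Control cells were untreated. LPS cells had spent 48 h with 1 µg/mL of lipopolysaccharide (LPS), a cell wall endotoxin, taken here from E. coli K12. LPS+RSV cells received the stilbene trans-resveratrol (RSV), at 50 µM and dissolved in ethanol, 1 h before the same exposure. All cells were used between 15 and 19 days after seeding, and the labels tie no array to a day and give no solvent control. No group received resveratrol alone. Replicates are numbered with nothing said of separate cultures, so the spread that p-values rest on is that of these arrays and may be technical.

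Apolipoprotein A-IV, the product of APOA4, is made by enterocytes while fat is being absorbed and travels on chylomicrons, the particles that carry dietary fat from the gut into lymph. CPT1A encodes carnitine palmitoyltransferase 1A, which sits in the outer mitochondrial membrane and controls the entry of long-chain fatty acids into beta oxidation. PPARA encodes PPARα, a nuclear receptor that binds fatty acids, pairs with RXR and switches on genes of fatty acid oxidation, CPT1A among them. The 3 genes thus stand for export, burning and sensing of fatty acids.

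Of 12 enterocyte markers, 6 had a named row and 6 passed the filter. SI (sucrase-isomaltase), VIL1 (villin), CDHR5 and DPP4 lay between percentiles 98.2 and 99.5 of all rows, ANPEP at 89.0 and KRT20 at 61.6. Markers of other cell types were measured above the filter as well. Of 4 hepatocyte genes, ALB, AFP and TTR lay at percentile 99.4 or above and TF at 58.6. For goblet cells 3 of 4 passed, with AGR2 at percentile 88.7, TFF3 at 75.3 and FCGBP at 54.7, and CLCA1 below the filter. Of 4 enteroendocrine genes 3 passed, at percentiles of 40.8 to 60.1, with GCG below the filter, and LYZ and REG3A of Paneth cells lay at 66.5 and 41.6. CD68, a macrophage gene, lay at percentile 99.2 and DCN of fibroblasts below the filter. Array medians were between 5.49 and 5.54 (log2), and pairs of arrays correlated between 0.922 and 0.994 over the tested genes. The array least like the rest was LPS+RSV replicate 1 (mean correlation 0.946), and LPS replicates 1 and 2 were known from an earlier look at these arrays to differ from their group. Their mean correlations, 0.978 and 0.976, did not set them apart from LPS replicates 4 and 5 (0.976 and 0.974). Both had high CPT1A and PPARA, and leaving them out lowers the LPS mean of all 3 genes. Results are also given without LPS+RSV replicate 1 and without LPS replicates 1 and 2.

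The levels of APOA4 on the control arrays were 8.56, 8.47, 9.55, 11.02 and 10.62 (log2, replicates 1 to 5). Replicates 4 and 5 were high and 1 and 2 low, with 3 between them. On the LPS arrays APOA4 was at 9.85, 10.17, 9.91, 8.29 and 8.02, so that here replicates 4 and 5 were the low ones. On the LPS+RSV arrays it was at 11.31, 7.48, 9.72, 11.18 and 11.17, where replicate 2 held the lowest value of the whole series and replicate 1 the highest. The groups overlapped throughout. Within the LPS+RSV group alone the highest array exceeded the lowest 14.2-fold, against 5.85-fold within control and 4.45-fold within LPS. Without LPS+RSV replicate 2 that range was 3.01-fold.

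CPT1A was measured at 8.44, 8.51, 8.53, 8.97 and 8.88 on control replicates 1 to 5 (log2). The LPS arrays had 9.13, 8.86, 8.60, 8.11 and 8.37. The LPS+RSV arrays had 9.16, 8.38, 8.62, 8.80 and 9.01. As for APOA4, replicates 4 and 5 were the high arrays in control and the low ones in LPS, and in LPS+RSV replicate 2 was lowest and replicate 1 highest. The spread was narrower, with 2.07-fold between the lowest and highest of the 15 arrays against 14.2-fold for APOA4.

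PPARA stood at 8.13, 8.10, 8.11, 8.32 and 8.27 in control (log2), at 8.37, 8.38, 8.14, 7.93 and 7.79 in LPS, and at 8.17, 7.75, 8.10, 8.14 and 8.48 in LPS+RSV. Control arrays lay within 1.17-fold of each other, while the LPS arrays spanned 1.5-fold and the LPS+RSV arrays 1.66-fold. Replicates 4 and 5 were again high in control and low in LPS, and LPS+RSV replicate 2 was again the lowest array of its group. Levels of different genes come from different probes and are not set against each other.

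**Figure D1:**
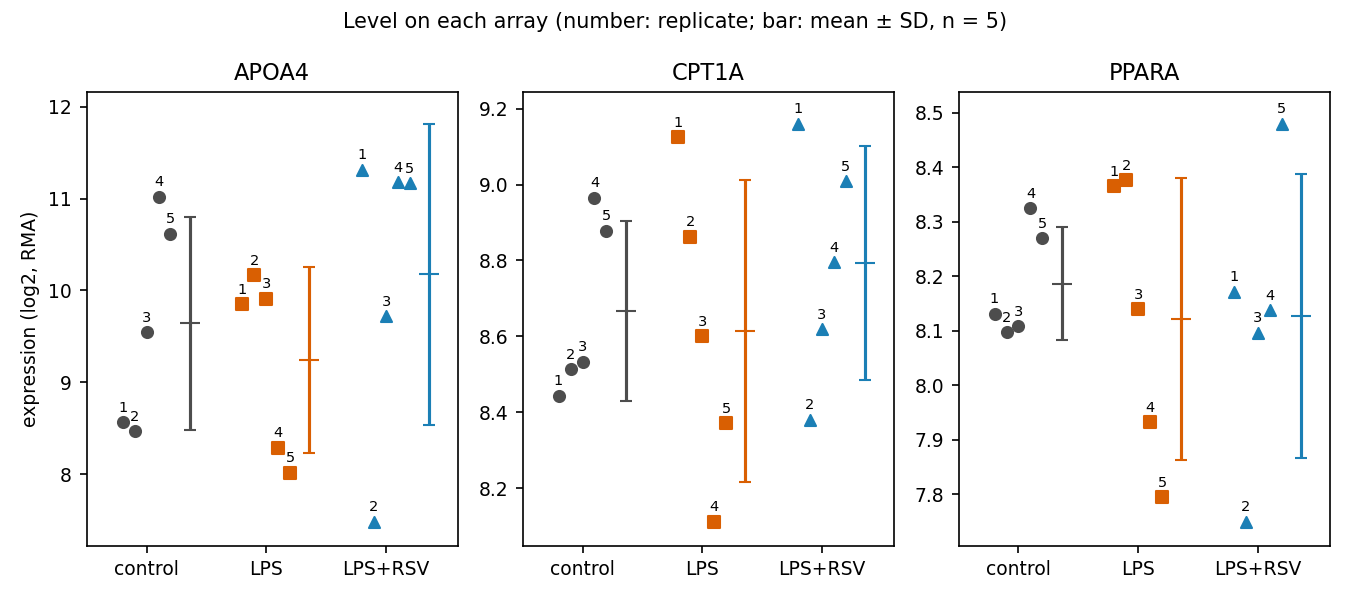
Expression (log2) of APOA4, CPT1A and PPARA on each array, by group; numbers give the replicate, and the bars show mean ± SD of 5 arrays. The groups overlap for every gene, and LPS+RSV replicate 2 has the lowest APOA4 value, 7.48.

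APOA4 varied more between arrays of 1 group than any of the other tested genes. Its pooled within-group SD was 1.3 on the log2 scale, rank 1 of 11804, where the median gene had 0.157. The next ranks were held by CEACAM5 (1.19) and CEACAM6 (1.10), cell surface glycoproteins of the colon epithelium, S100G (1.05), an intestinal calcium-binding protein, and MTTP (1.03), the microsomal transfer protein that loads lipid onto apolipoprotein B. These were read off the ranking after the values were seen. Without LPS+RSV replicate 2, the SD of APOA4 was 1.01 and its rank 3. With any 1 of the other 14 arrays left out, its rank stayed 1. Among 691 genes within 0.5 of its mean level, the median SD was 0.145.

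The other 2 genes were less extreme. CPT1A had a within-group SD of 0.321, at the 92.7th percentile of tested genes and rank 865, and PPARA one of 0.220, at the 77.6th percentile. Differences between group means made up 9.67% of the variance of APOA4, 6.37% for CPT1A and 2.16% for PPARA, against 18.3% for the median gene. These shares are not corrected for what noise alone gives and are no measure of a treatment effect. By group, the SD of APOA4 was 1.16 in control, 1.01 in LPS and 1.64 in LPS+RSV, and the last was 0.752 without replicate 2, below both other groups. For PPARA it was 0.104 in control, 0.259 in LPS and 0.260 in LPS+RSV. Differences in spread between groups were not tested.

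**Figure D2:**
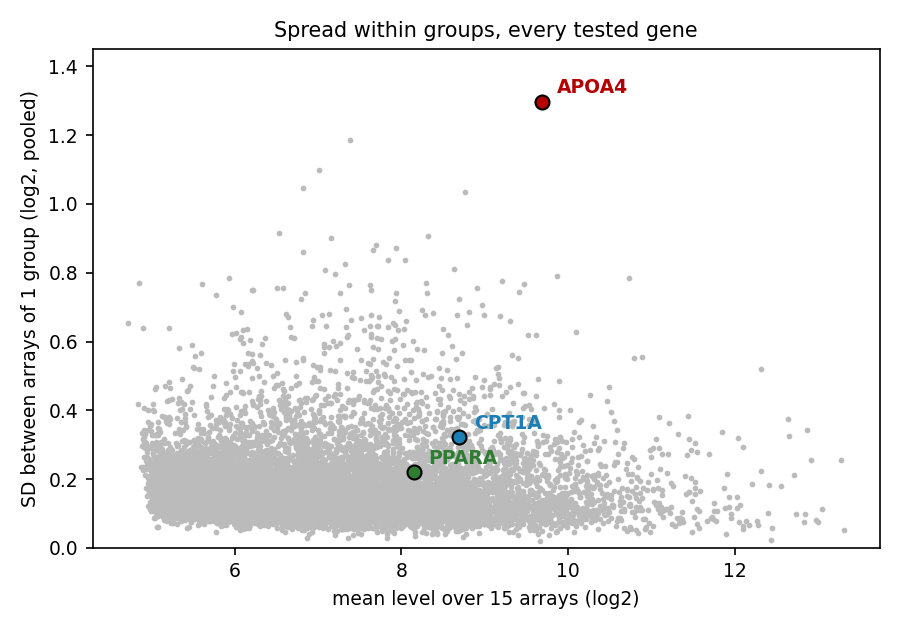
Pooled SD between arrays of 1 group (log2) against the mean level over 15 arrays, 1 point for each of 11804 genes. APOA4 has the highest SD, 1.3, while CPT1A (0.321) and PPARA (0.220) lie nearer to the bulk of genes.

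The comparison of LPS with control asked whether endotoxin altered these genes. APOA4 averaged 9.25 ± 1.01 in LPS and 9.64 ± 1.16 in control (log2, mean ± SD, n = 5 each), CPT1A 8.61 ± 0.40 and 8.67 ± 0.24, and PPARA 8.12 ± 0.26 and 8.19 ± 0.10. None passed: 0 of 3 were called by limma at an adjusted p under 0.05, and 0 of 3 had an unadjusted p under 0.05. In the same comparison 0.0254% of tested genes were called, and 7.88% had an unadjusted p under 0.05. The log2 difference of APOA4 was -0.40 ± 0.71 (SE; adjusted p = 0.934, limma; exact permutation p = 0.563, 2-sided), with a 95% confidence interval from -1.91 to 1.12. That interval runs from 3.76-fold lower to 2.17-fold higher. For CPT1A the difference was -0.05 ± 0.18 (interval -0.44 to 0.33; adjusted p = 0.975, limma) and for PPARA -0.06 ± 0.13 (interval -0.34 to 0.21; adjusted p = 0.944, limma). The lower ends of these intervals stand for levels 1.36-fold and 1.26-fold below control. Without LPS replicates 1 and 2 the differences were -0.90 ± 0.85, -0.31 ± 0.18 and -0.23 ± 0.13, and none passed (limma adjusted p of 0.921 or more).

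The comparison of LPS+RSV with LPS addressed the effect of adding resveratrol before endotoxin. APOA4 averaged 10.17 ± 1.64 in LPS+RSV, 1.90-fold the LPS mean, and 4 of 5 LPS+RSV arrays lay above that mean. The log2 difference was 0.93 ± 0.71 (SE; adjusted p = 0.5, limma; exact permutation p = 0.246, 2-sided), with a 95% confidence interval from -0.59 to 2.44, or up to 5.43-fold higher. The difference changed with single arrays: without LPS+RSV replicate 2 it was larger, at 1.60 ± 0.58 (adjusted p = 0.114, limma). It was 0.64 ± 0.76 without LPS+RSV replicate 1 and 1.43 ± 0.85 without LPS replicates 1 and 2. CPT1A averaged 8.79 ± 0.31 and differed by 0.18 ± 0.18 (interval -0.21 to 0.57; adjusted p = 0.624, limma). PPARA averaged 8.13 ± 0.26 and differed by 0.01 ± 0.13 (interval -0.27 to 0.28; adjusted p = 0.989, limma). Without LPS replicates 1 and 2 CPT1A differed by 0.43 ± 0.18 and PPARA by 0.17 ± 0.13, and without LPS+RSV replicate 1 they were at 0.09 ± 0.19 and -0.0060 ± 0.14. Again 0 of 3 genes were called and 0 of 3 had an unadjusted limma p under 0.05, where 0.0424% of all tested genes were called (0.00847% higher, 0.0339% lower) and 18.6% had an unadjusted p under 0.05.

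Between LPS+RSV and control, APOA4 differed by 0.53 ± 0.71 (adjusted p = 0.759, limma), CPT1A by 0.13 ± 0.18 (adjusted p = 0.778, limma) and PPARA by -0.06 ± 0.13 (adjusted p = 0.857, limma). The limma fit called 0 of 3 here, none of the 3 had an unadjusted p under 0.05, and the share called over all genes was 0.0%, with 10.5% at an unadjusted p under 0.05. Without LPS+RSV replicate 2, APOA4 differed by 1.20 ± 0.58 (adjusted p = 0.3, limma). These 3 comparisons share arrays, so their values are not independent. By group mean, APOA4 and CPT1A ran from LPS+RSV over control to LPS and PPARA from control over LPS+RSV to LPS. No neighbours in these orders differed beyond their spread. Leaving out 1 array turned the sign of CPT1A in LPS against control in 4 of 15 fits and of PPARA in LPS+RSV against LPS in 4 of 15.

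The genes rose and fell together between arrays that had received the same treatment. Each array was expressed as its deviation from the mean of its group, which removes the differences between group means. APOA4 and CPT1A had Pearson r = 0.835 over 15 arrays (permutation p = 0.00026, adjusted p = 0.00052) and Spearman rho = 0.814 (permutation p = 0.00022, adjusted p = 0.000735). APOA4 and PPARA had r = 0.835 (permutation p = 0.00017, adjusted p = 0.00052) and rho = 0.796 (permutation p = 0.0004, adjusted p = 0.000735). CPT1A and PPARA had r = 0.838 (permutation p = 0.00092, adjusted p = 0.00114) and rho = 0.882 (permutation p = 0.00049, adjusted p = 0.000735). Permutations were made within groups, 2-sided, and adjusted over 6 relations by Benjamini-Hochberg.

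Each relation held its sign inside every group of 5. Within control the 3 values of r were 0.954, 0.919 and 0.968, in the order above. In LPS they were 0.812, 0.935 and 0.879, and in LPS+RSV 0.901, 0.847 and 0.791. Without the 2 arrays farthest from the median of the first gene, r was 0.813 for APOA4 with CPT1A, 0.690 for APOA4 with PPARA and 0.828 for CPT1A with PPARA. Such values were common in these arrays, since 533 genes (4.52%) had r above 0.8 with APOA4, 393 with CPT1A and 236 with PPARA. Among 11803 genes ranked by r with APOA4, PPARA was number 395 and CPT1A number 398.

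**Figure D3:**
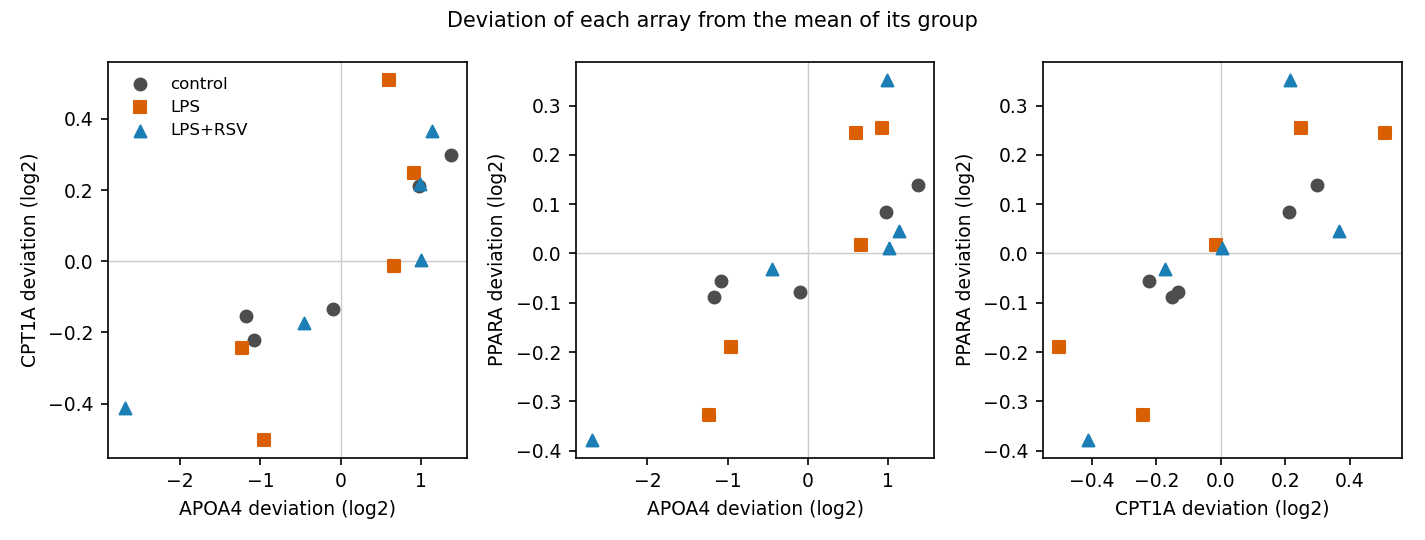
Deviation of each array from its group mean (log2) for APOA4 against CPT1A, APOA4 against PPARA and CPT1A against PPARA, 15 arrays in each panel. Points of all 3 groups run from lower left to upper right, with r between 0.835 and 0.838.

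All 3 genes were low on arrays where proliferation genes were high. A cell cycle score was formed for each array from 31 genes such as MKI67, PLK1 and CDK1: every gene was centred on its 15-array mean (log2), and the 31 centred values were averaged. Control replicates 1 to 5 had scores of 0.45, 0.44, -0.19, -0.38 and -0.99. LPS arrays had 0.17, 0.12, -0.01, 0.84 and 0.98, and LPS+RSV arrays had -0.45, 0.44, -0.17, -0.40 and -0.87. The arrays of highest score in each group, control replicates 1 and 2, LPS replicates 4 and 5 and LPS+RSV replicate 2, were those of lowest APOA4. Markers of several cell types moved with APOA4 as well. Group-centred r with APOA4 was above 0 for 6 of 6 enterocyte markers, from 0.60 for DPP4 to 0.949 for CDHR5, and for 4 of 4 hepatocyte markers, from 0.456 to 0.662. It was 0.893 for CD68. Of 3 goblet markers, AGR2 had -0.766, TFF3 -0.084 and FCGBP 0.535. Of 2 Paneth markers, LYZ had -0.860 and REG3A 0.426. For enteroendocrine cells 2 of 3 were above 0, from -0.561 for CHGB to 0.371 for CHGA. The score of the enterocyte markers, formed the same way, spanned -0.42 to 0.26 in control. In LPS it spanned -0.40 to 0.44, and in LPS+RSV -0.49 to 0.39. Among them KRT20, a keratin of the villus tip, was at 1.16 ± 0.34 in LPS against control (adjusted p = 0.351, limma), and at 0.50 ± 0.22 without LPS replicates 1 and 2, while SI was at -0.42 ± 0.18. The part of these markers in the course of APOA4 was not tested.

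With the groups centred, the cell cycle score had r = -0.888 with APOA4 (p = 0.00019 by permutation, adjusted p = 0.00052), with rho = -0.764 (p = 0.00172 by permutation, adjusted p = 0.00206). Its r was -0.761 with CPT1A (p = 0.002 by permutation, adjusted p = 0.002), with rho = -0.746 (p = 0.0028 by permutation, adjusted p = 0.0028). With PPARA it was -0.794 (p = 0.00095 by permutation, adjusted p = 0.00114), with rho = -0.864 (p = 0.00042 by permutation, adjusted p = 0.000735). Without the 2 arrays farthest out for the gene, r was -0.860, -0.802 and -0.705. An opposing course of a fatty acid oxidation score and cell cycle genes was already known from these arrays, so these values are no independent evidence of it. In bulk RNA, fewer cells of a kind and less RNA per cell cannot be told apart.

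**Figure D4:**
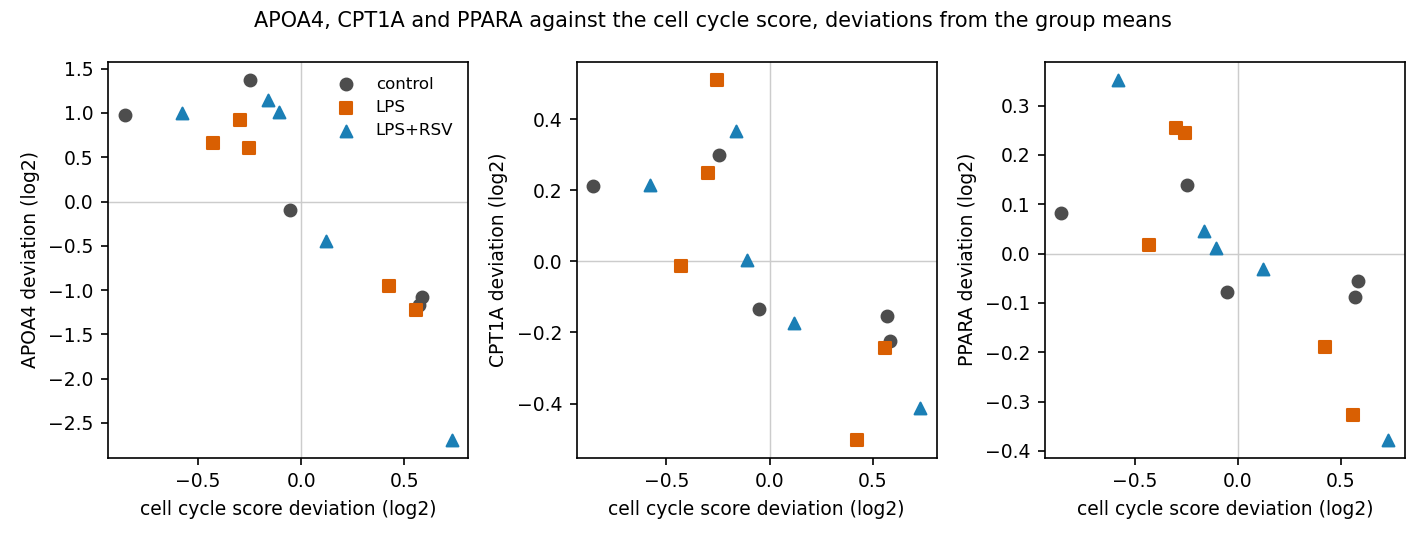
Deviation from the group mean (log2) of APOA4, CPT1A and PPARA against that of the cell cycle score, 1 point per array. All 3 panels run downward, with r of -0.888, -0.761 and -0.794.

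The score also differed between groups, with means of -0.13 ± 0.60 in control, 0.42 ± 0.46 in LPS and -0.29 ± 0.48 in LPS+RSV (SD, n = 5 each). Entered as a covariate, it turned the sign of all 3 genes in LPS against control: APOA4 differed by 0.84 ± 0.37 (adjusted p = 0.289, limma), CPT1A by 0.21 ± 0.14 and PPARA by 0.12 ± 0.10. Against LPS, the LPS+RSV differences turned as well, to -0.65 ± 0.39 for APOA4 (adjusted p = 0.55, limma), -0.16 ± 0.15 for CPT1A and -0.23 ± 0.10 for PPARA. The SE of APOA4 in LPS against control went from 0.714 to 0.369. None of the 3 genes passed with or without the score. With the score also removed from both genes, a step added after the data were seen, r went to 0.532 for APOA4 with CPT1A (permutation p = 0.0117, adjusted over 3 p = 0.035; rho = 0.721, adjusted p = 0.00285). It went to 0.465 for APOA4 with PPARA (permutation p = 0.0816, adjusted p = 0.0816; rho = 0.450, adjusted p = 0.095) and to 0.592 for CPT1A with PPARA (permutation p = 0.0422, adjusted p = 0.0634; rho = 0.621, adjusted p = 0.0567). Neither of these passed. The part of proliferation in the differences between groups was not tested beyond these values.

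**Figure D5:**
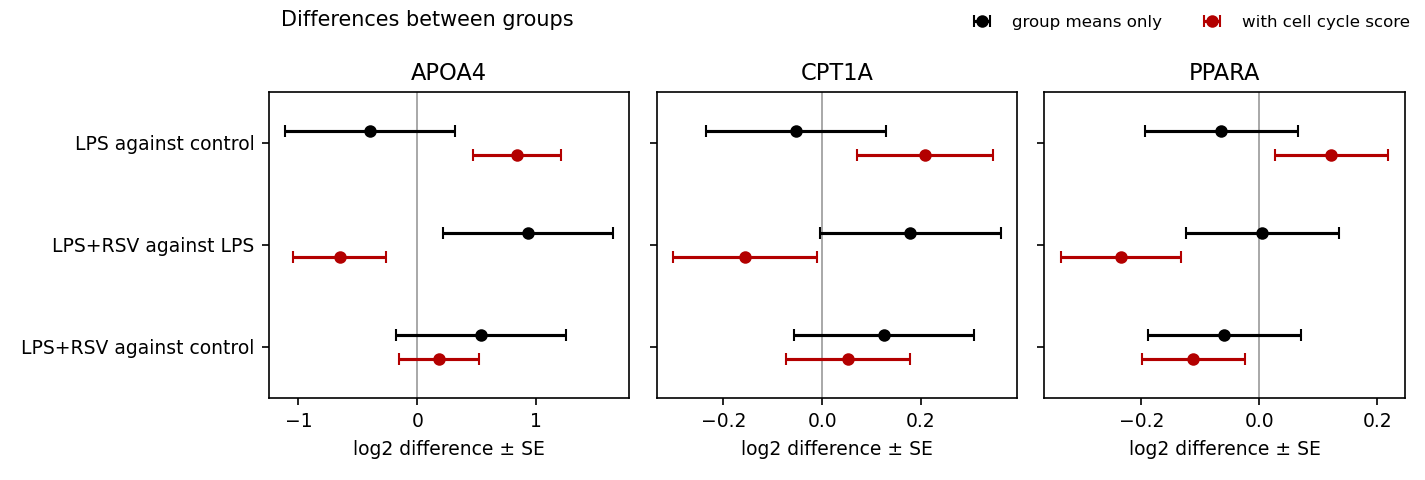
Log2 difference ± SE for 3 comparisons of each gene, from the fit with group means only (black) and with the cell cycle score as a covariate (red). With the score, APOA4 moves from -0.40 to 0.84 in LPS against control; for LPS+RSV against LPS it moves from 0.93 to -0.65.

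Over all tested genes, the one whose course was most like that of APOA4 was NDRG1, a gene of epithelial differentiation and hypoxia (r = 0.984, rho = 0.932, groups centred, 15 arrays). It was followed by ZG16, a lectin of the intestinal mucus (r = 0.984), AQP10, an aquaglyceroporin of the small intestine (0.978), SUSD2 (0.978) and C11orf24 (0.976). The 5 most opposed were DIMT1, which modifies ribosomal RNA (r = -0.975), SAMHD1, a dNTP hydrolase (-0.966), MCM4, a subunit of the replicative helicase (-0.957), the histone chaperone gene SUPT16H (-0.957) and RBBP4, a histone-binding protein (-0.957). They were picked by r and carry no test.

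For CPT1A the 5 most alike were TUFT1 (r = 0.951), the trefoil factor gene TFF2 (0.945), WSB2 (0.945), CDCP1 (0.944) and SYNGR2 (0.943). The 5 most opposed were PEG10 (r = -0.962), HTATSF1 (-0.962), RPP30 of ribonuclease P (-0.941), the splicing factor gene SRRM1 (-0.941) and SOAT1 (-0.938), which makes cholesteryl esters. For PPARA the most alike were IFNGR2, a chain of the interferon gamma receptor (r = 0.930), the histone demethylase gene KDM2A (0.929), PAM (0.921), DEPDC7 (0.918) and SIAE (0.906). The most opposed to PPARA were the mitochondrial import factor gene TOMM34 (r = -0.941), the demethylase gene KDM1A (-0.918), FOXQ1 (-0.916), the receptor gene EPHB4 (-0.907) and VGLL1 (-0.906). No gene stood in more than 1 of these lists.

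The promoters of the 3 genes are shown because the genes moved together. Each is the 250 bases before the start given by RefSeq (GRCh38.p14), from 5′ to 3′ on the gene's strand; all 3 genes matched an entry, and for PPARA the first of 2 is shown. APOA4 lies on the minus strand at chr11:116823305-116823554, CPT1A on the minus strand at chr11:68844278-68844527 and PPARA on the plus strand at chr22:46150276-46150525. Capitals mark the motifs found.
APOA4: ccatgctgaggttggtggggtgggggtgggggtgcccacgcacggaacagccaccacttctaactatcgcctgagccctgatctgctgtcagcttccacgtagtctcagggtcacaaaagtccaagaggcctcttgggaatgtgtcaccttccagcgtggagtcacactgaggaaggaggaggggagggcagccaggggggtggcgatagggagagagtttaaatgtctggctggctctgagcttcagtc
CPT1A: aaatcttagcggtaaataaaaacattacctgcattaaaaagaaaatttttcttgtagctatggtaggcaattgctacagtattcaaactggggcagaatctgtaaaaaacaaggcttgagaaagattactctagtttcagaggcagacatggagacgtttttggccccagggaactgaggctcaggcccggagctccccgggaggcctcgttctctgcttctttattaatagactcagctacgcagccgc
PPARA: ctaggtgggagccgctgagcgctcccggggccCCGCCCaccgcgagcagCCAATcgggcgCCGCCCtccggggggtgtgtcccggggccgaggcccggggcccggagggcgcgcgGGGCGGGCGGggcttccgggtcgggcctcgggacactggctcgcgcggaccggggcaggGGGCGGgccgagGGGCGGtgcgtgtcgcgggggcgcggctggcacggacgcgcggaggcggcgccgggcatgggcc

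8 motifs were sought on both strands: AGGTCA, the half-site of nuclear receptors, held by 12.1% of 35116 promoters of this length; the direct repeat 1, 2 such half-sites with 1 base between them, bound by PPARα with RXR (0.0171%); CAAAGTCCA of HNF4 (0.325%); TATAAA (10.7%); GGGCGG, the GC box (42.6%); CCAAT (32%); CACGTG, the E-box (6.34%); and TGACGTCA, the cAMP response element (1.65%). The direct repeat contains the half-site. The stretch of PPARA, 84.4% G and C, held 6 GC boxes, of which 2 overlap, and 1 CCAAT box. None of the 8 motifs, as spelled, lay in the 250 bases of APOA4 (59.2% G and C) or of CPT1A (44.4%). The 3 stretches thus shared none of these motifs, which says nothing of sites elsewhere or spelled otherwise.

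Over all tested genes, 52.7% were higher in LPS than in control, 52.1% higher in LPS+RSV than in LPS and 55.8% higher in LPS+RSV than in control. The medians were 0.0071, 0.0076 and 0.0195, against which the lists below are read. Of 28 genes of chylomicron assembly, APOA4 included, 23 were tested and 0 were called in any of the 3 comparisons. LPS against control had 12 higher and 11 lower (median 0.00), and LPS+RSV against LPS had 17 higher and 6 lower, with a median of 0.15. With the cell cycle score as a covariate, 20 of 23 were higher in LPS than in control and 19 of 23 lower in LPS+RSV than in LPS. The list medians in that fit were 0.18 and -0.14, against 0.0072 and 0.00011 over all tested genes. At equal score, MTTP was higher in LPS than in control by 1.17 ± 0.25 (adjusted p = 0.0435, limma). It was the 1 gene of the list that was called, where 69 of all tested genes were, against 3 without the score. The score itself was higher in LPS than in control, and without it MTTP differed by 0.15 ± 0.57. The list counts with the score, and those of the same kind for the lists that follow, were added after the data were seen. At an unadjusted p under 0.05 there were 2 and 5 of 23 in limma without the score, where 7.88% and 18.6% of all genes were. APOA2, a high-density lipoprotein apolipoprotein, had the lowest p in both, at 0.39 ± 0.11 in LPS against control (adjusted p = 0.351, limma) and -0.38 ± 0.11 in LPS+RSV against LPS (adjusted p = 0.138, limma). Without LPS replicates 1 and 2 it was at 0.24 ± 0.11 and -0.23 ± 0.11. The phospholipid transfer protein gene PLTP differed by 0.26 ± 0.09 in the second, and the lipid droplet gene PLIN2 by 0.18 ± 0.08 in the first, values that were 0.14 ± 0.09 and 0.11 ± 0.08 without those 2 arrays. LPS+RSV against control had 20 of 23 higher (median 0.12), and 17 of 23 with the score (median 0.08). In that comparison, without the score, MOGAT2, which rebuilds triglyceride in enterocytes, differed by 0.39 ± 0.14 and the vesicle fusion gene VAMP7 by -0.24 ± 0.10.

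Chylomicron genes followed APOA4 between arrays. Group-centred r with APOA4 was above 0 for 20 of 22, with a median of 0.720 against 0.05 over all tested genes. The list had a median r of 0.652 with CPT1A and 0.601 with PPARA, and enterocyte markers had 0.793 with APOA4. MTTP was closest to APOA4, at r = 0.962 and rho = 0.861. Its levels were 7.57, 7.45, 8.61, 9.59 and 9.63 on control replicates 1 to 5 (log2), 9.66, 9.70, 8.83, 7.81 and 7.63 in LPS, and 9.66, 7.28, 8.70, 9.49 and 9.90 in LPS+RSV. Its low arrays were those of low APOA4 in each group. APOB, the structural protein of chylomicrons, had r = 0.915, APOC3, an inhibitor of lipoprotein lipase, 0.865 and APOA1, of high-density lipoprotein, 0.698. Differences between groups did not pass for these: MTTP was at 0.15 ± 0.57 in LPS against control (adjusted p = 0.977, limma; called with the cell cycle score, as above) and 0.28 ± 0.57 in LPS+RSV against LPS, APOB at -0.08 ± 0.18 and 0.13 ± 0.18, APOC3 at -0.02 ± 0.15 and 0.13 ± 0.15, and APOA1 at 0.09 ± 0.11 and 0.09 ± 0.11.

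Of 14 genes of the carnitine shuttle, CPT1A included, 7 were tested and 0 called. In LPS+RSV against LPS 7 of 7 were higher, with a median of 0.18, where 52.1% of all genes were, while LPS against control had 3 higher and 4 lower. It was also 7 of 7 without LPS+RSV replicate 1, or without LPS replicates 1 and 2, and 3 of 7 with the cell cycle score as a covariate. LPS+RSV against control had 6 of 7 higher with and without the score. CRAT, the carnitine acetyltransferase, differed by 0.50 ± 0.16 in LPS+RSV against LPS (adjusted p = 0.156, limma) and by 0.31 ± 0.16 against control. ACACB, whose product makes the malonyl-CoA that inhibits CPT1, differed by 0.22 ± 0.06 (adjusted p = 0.127, limma) and, in LPS against control, by -0.16 ± 0.06. The peroxisomal transferase gene CROT was at -0.23 ± 0.11 in LPS against control, and MLYCD, which breaks malonyl-CoA down, at 0.19 ± 0.10 in LPS+RSV against control. CPT2, the inner-membrane partner of CPT1A, was at 0.22 ± 0.14 in LPS+RSV against LPS (adjusted p = 0.405, limma) and had r = 0.828 with CPT1A between arrays. The group-centred r with CPT1A was above 0 for 6 of 6 other shuttle genes, with a median of 0.650 against 0.05 over all genes. For the same list the median was higher with APOA4 (0.835, 7 of 7 above 0) and with PPARA (0.725, 7 of 7). Enterocyte markers had a median r of 0.781 with CPT1A, so the relation was not particular to the shuttle.

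Of 19 genes of mitochondrial beta oxidation 6 had a named row, and 0 were called. In LPS+RSV against LPS 5 of 6 were higher (median 0.11), and in LPS against control 1 of 6 was (median -0.06). With the cell cycle score it was 4 of 6 in both, and HADH in LPS+RSV against LPS was at -0.0066. LPS+RSV against control had 5 of 6 higher with and without the score. The isomerase gene ECI1 differed by 0.23 ± 0.09 (adjusted p = 0.21, limma) and the dehydrogenase gene HADH by 0.53 ± 0.25 (adjusted p = 0.267, limma) in LPS+RSV against LPS, and by 0.21 ± 0.09 and 0.28 ± 0.25 against control. Without LPS+RSV replicate 1, ECI1 was at 0.15 ± 0.08 and 0.13 ± 0.08, and leaving out 1 array took HADH against control from 0.13 (control replicate 2) to 0.47 (LPS+RSV replicate 2). HSD17B10 and ETFDH were at -0.10 ± 0.08 and -0.13 ± 0.12 in LPS against control, and at -0.014 ± 0.069 and -0.29 ± 0.12 without LPS replicates 1 and 2. HADH had r = 0.878 with APOA4 and 0.628 with CPT1A, and ECI1 0.276 and 0.369.

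For uptake and activation of fatty acids 9 of 25 genes were tested, and 0 were called. Of these, 6 of 9 were higher in LPS than in control (median 0.13) and 7 of 9 lower in LPS+RSV than in LPS (median -0.16). Without LPS replicates 1 and 2 the medians were 0.02 and -0.07, with 6 of 9 higher and 6 of 9 lower. With the cell cycle score they were 0.14 and -0.20, with 7 of 9 higher and 7 of 9 lower. LPS+RSV against control had 5 of 9 higher, and 4 of 9 with the score. ACSL4, an acyl-CoA synthetase with a preference for arachidonic acid, differed by -0.89 ± 0.21 in LPS+RSV against LPS (adjusted p = 0.102, limma) and by -0.46 ± 0.21 against control. It passed without LPS replicate 3 (adjusted p = 0.0447, limma) or without LPS+RSV replicate 2 (adjusted p = 0.0427, limma). In these fits 102 and 121 of all tested genes were called, against 5 with all arrays. Over 27 alternatives the adjusted p of ACSL4 ran up to 0.337 (limma). ACSM3, a medium-chain acyl-CoA synthetase, differed by -0.47 ± 0.12 in LPS against control (adjusted p = 0.29, limma) and by 0.53 ± 0.12 in LPS+RSV against LPS (adjusted p = 0.0756, limma). The lipase gene MGLL was at 0.46 ± 0.21 in LPS against control, and at 0.02 ± 0.10 without LPS replicates 1 and 2. FABP5, a fatty acid binding protein, was at -0.13 ± 0.12 in LPS+RSV against control, and at -0.24 ± 0.10 without control replicate 1 and -0.066 ± 0.12 without LPS+RSV replicate 1. With APOA4, r was -0.736 for ACSL4 and -0.398 for ACSM3.

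Of 25 genes for PPARs and their partners, PPARA included, 12 were tested and 0 called; LPS against control had 6 higher and 6 lower, and LPS+RSV against LPS 5 and 7. Without LPS replicates 1 and 2 the counts were 2 and 10, then 9 and 3. With the cell cycle score, LPS+RSV lay below LPS for 11 of 12. LPS+RSV against control had 4 of 12 higher, and 3 of 12 with the score. NRIP1, a corepressor of nuclear receptors, differed by -0.31 ± 0.12 in LPS+RSV against LPS (adjusted p = 0.189, limma) and by -0.37 ± 0.12 against control. Without LPS+RSV replicate 1 these were -0.18 ± 0.08 and -0.25 ± 0.08. The coactivator gene NCOA2 was at -0.20 ± 0.08 in LPS+RSV against LPS and at 0.09 ± 0.08 in LPS against control, which became -0.11 ± 0.08 and -0.0028 ± 0.077 without LPS replicates 1 and 2. PPARG differed by 0.45 ± 0.24 in LPS against control, and by -0.077 ± 0.096 without LPS replicates 1 and 2. PPARD, the third PPAR, was at 0.19 ± 0.08 in LPS+RSV against control (adjusted p = 0.464, limma). CREB3L3, a fasting-induced transcription factor known to act with PPARα and on APOA4, differed by 0.04 ± 0.23 between LPS and control and by 0.12 ± 0.23 between LPS+RSV and LPS. Between arrays it had r = 0.930 with APOA4 and 0.726 with PPARA.

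Of 28 PPARα targets, a list that holds CPT1A, 15 were tested and 0 called. LPS against control had 6 higher and 9 lower, and LPS+RSV against LPS 12 higher and 3 lower, with a median of 0.18. That median was 0.09 without LPS+RSV replicate 1, 0.33 without LPS replicates 1 and 2, and 0.04 with the cell cycle score, which left 9 higher and 6 lower. LPS+RSV against control had 14 of 15 higher without the score (median 0.14) and with it (median 0.10). Without LPS+RSV replicate 1 it was 11 of 15 (median 0.04). In LPS+RSV against LPS the lipase inhibitor gene G0S2 had the lowest p, at 0.52 ± 0.13 (adjusted p = 0.114, limma), and was at -0.30 ± 0.13 in LPS against control. The thioesterase gene ACOT2 followed at 0.41 ± 0.14 (adjusted p = 0.167, limma). In LPS+RSV against control ACOT2 was at 0.27 ± 0.14 (0.14 ± 0.12 without LPS+RSV replicate 1) and the thiolase gene ACAA1 at 0.32 ± 0.18. ANGPTL4, an inhibitor of lipoprotein lipase, was at -0.12 ± 0.09 in LPS against control. LPS+RSV differed from LPS by 0.15 ± 0.09, and its r with PPARA was -0.03. Over the targets, r with PPARA was above 0 for 11 of 15, with a median of 0.628 against -0.01 over all genes. The same targets had 13 of 15 above 0 with APOA4 (median 0.820) and 12 of 14 with CPT1A (median 0.662). Enterocyte markers had a median r of 0.685 with PPARA, so the relation was not particular to the targets. FABP1, FABP2, SLC25A20, PDK4, PPARGC1A, RXRA and HNF4A, which belong to these lists, have no named row here and were not analysed.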

How the data were processed

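Expression was measured on 15 Affymetrix whole-transcript arrays of Caco-2 RNA (300 ng per sample). The deposited log2 values, 53617 rows, were made by the authors with RMA, as the submitters' processing notes name it, a method that corrects background, equalises the arrays' distributions and sums probes into 1 value; its version and the genome build are not given in the sources used here. Equalised distributions hide any overall shift in RNA content. The platform annotation named 16098 rows with 1 symbol, 0 with several, and left 37519 unnamed.

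Values were used as deposited, with the brightest row per symbol. Genes above the 40th percentile of an array on at least 5 arrays were tested. All 15 arrays entered 1 fit with 3 group means (limma 3.58.1, R 4.3.3), with Benjamini-Hochberg over 11804 genes and a threshold of 0.05. Exact permutation used 252 divisions, smallest p 0.00794, and correlations 100000 permutations within groups (Python 3.11.15). The fit was tested on simulated data. Members and lists were chosen with earlier results of these data known. Named genes were the 3 members, 5 most and 5 least alike per member, list genes called or else the 2 of lowest p per comparison, and 18 fixed genes. Marker lists of other cell types served as checks. Alternatives covered filter, rows, normalization, moderation, weights, groups fitted, replicate block, cell cycle covariate and arrays left out. Array number and spread, not depth, limit precision.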

Additional observations from a re-analysis of the deposited data

How the results depend on the processing

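Over 27 alternatives for each of 9 differences of APOA4, CPT1A and PPARA, 243 values in all, 0 passed limma's threshold and 226 kept their sign; the lowest adjusted p was 0.114 (limma, APOA4 in LPS+RSV against LPS without LPS+RSV replicate 2). The cell cycle covariate turned 6 of them: in LPS against control to 0.84 (APOA4), 0.21 (CPT1A) and 0.12 (PPARA), and in LPS+RSV against LPS to -0.65, -0.16 and -0.23; it also turned ETFDH in LPS against control to 0.035 and HADH in LPS+RSV against LPS to -0.0066. Median centring took PPARA in LPS+RSV against LPS to -0.0011, and leaving out LPS replicates 1 and 2 took PPARG and NCOA2 in LPS against control to -0.077 and -0.0028. The cause was not tested.

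With 1 array left out, APOA4 ran from -0.69 to -0.05 in LPS against control, from 0.62 to 1.60 in LPS+RSV against LPS and from 0.24 to 1.20 in LPS+RSV against control. CPT1A ran from -0.18 to 0.073, from 0.05 to 0.31 and from 0.03 to 0.23, and PPARA from -0.13 to 0.017, from -0.083 to 0.10 and from -0.15 to 0.035. The 6 correlations kept sign and threshold in 120 of 120 alternatives; with the cell cycle score also removed, r was 0.465 for APOA4 with PPARA and 0.592 for CPT1A with PPARA, and neither passed (adjusted p = 0.0816 and 0.0634, permutation).

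Genes called in LPS against control, 3, became 1 with median centring, 15 with array weights, 0 in a limma fit to the 2 groups, 6 with the replicate block and 69 with the cell cycle covariate, and 1 to 10 with 1 array left out. In LPS+RSV against LPS, 5 became 18 with quantile normalization of named rows, 3 with cyclic loess, 25 with array weights, 0 in a limma fit to the 2 groups, 3 with the replicate block, 24 with the covariate, 1 without LPS replicates 1 and 2, and 1 to 121 with 1 array left out. None held a member. Deviations of same-numbered arrays correlated between -0.541 and 0.707. The labels do not say whether arrays of the same number share a culture or a day, and values of both signs cannot decide it. With the replicate number as a block, APOA4 differed by -0.40 (adjusted p = 0.955, limma) and 0.93 (0.551), and no call on APOA4, CPT1A or PPARA changed.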
